A study of Homo sapiens with 10 samples.

Results

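The 44 genes described here encode the human machinery that carries proteins into mitochondria and that folds, trims or degrades them once they are inside. They were chosen by name as the subunits of the import complexes of both mitochondrial membranes, the import motor, the matrix chaperones, the presequence peptidase and the mitochondrial proteases. Each symbol matched 1 Ensembl identifier of the deposited count table, which lists 78932 identifiers, of which 21033 had enough reads to be tested. All 44 genes were among those tested, and the lowest count of any of them in any library was 87.

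The study set 5 knockdown libraries against 5 control libraries of beating cardiomyocytes that were differentiated from H1, an established line of human embryonic stem cells. Knockdown cells received GapmeRs against the RNA named CLIPPER, and control cells received control GapmeRs. A GapmeR is a short antisense oligonucleotide with modified ends that directs RNase H to cut its target RNA. Both groups were transfected on day 9 of differentiation at 50 nM with the same lipid reagent, Lipofectamine RNAiMAX, and were harvested 48 hours later for sequencing of total RNA depleted of ribosomal RNA. How many GapmeRs were used and which sequences they had is not given in the sources used here. No gene of the annotation is named CLIPPER, so the target RNA was not analysed here and the group labels were not checked against it. The labels do not say that the 5 replicates of a group came from separate cultures or differentiations, so the p-values measure the spread between these samples, which may be technical.

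Nearly all mitochondrial proteins are encoded in the nucleus, made in the cytosol and imported. Precursors enter through the translocase of the outer membrane, TOM, and are then sorted. Those with a presequence pass the translocase TIM23 and are pulled into the matrix by a motor built on the chaperone mortalin. Metabolite carriers are handed by small TIM chaperones of the intermembrane space to the translocase TIM22, and beta-barrel proteins go back to the outer membrane through the sorting and assembly machinery, SAM. In the matrix the presequence is cut off, chaperonins fold the protein, and ATP-dependent proteases remove what is damaged or unassembled. The heart muscle cell, which is packed with mitochondria, depends heavily on this traffic.

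Libraries held 32.9 to 45.1 counts in units of 1e6, and no pair of libraries was close enough to be a repeat of one library (lowest chi-square per degree of freedom 4.47). The first principal component held 83.54% of the variance and separated the groups, with knockdown libraries between -145.4 and -52.88 and control libraries between 106.1 and 112.3. Knockdown replicate 2 lay nearest to the control libraries. Genes of the mitochondrial genome took 10.9% to 17.5% of the counts of knockdown libraries and 10% to 12.2% of those of control libraries. Cardiomyocyte markers marked both groups, but their summed level was lower in the knockdown, at 13341 to 21829 CPM (counts per 1e6 counts) in knockdown libraries and 34811 to 47772 CPM in control libraries, and 7 of the 8 markers passed the test as lower. Of the pluripotent markers, POU5F1, NANOG and SOX2 averaged below 1 CPM in both groups. DPPA4 and LIN28A passed as higher, at 1.65 and 2.51 CPM in knockdown libraries and 0.211 and 0.258 CPM in control libraries. Of the endothelial markers, PECAM1, CDH5 and VWF averaged below 1 CPM in both groups. KDR and TEK passed as lower, at 11.6 and 1.17 CPM in knockdown libraries and 36.5 and 2.48 CPM in control libraries. In bulk RNA, fewer cells of a type and less RNA per cell cannot be told apart.

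Together the 44 genes took a larger share of the reads after the knockdown, 0.391% to 0.437% of all counts in knockdown libraries and 0.284% to 0.296% in control libraries, with no overlap between the groups. Within the knockdown, this share of unscaled counts was highest in replicates 1 and 2 (0.437% and 0.433%) and 0.391% to 0.408% in the others. This sum gives most weight to the genes with most reads, and HSPD1 and HSPA9 had the most counts in every library. HSPD1 averaged 729.5 CPM in knockdown libraries and 391.7 CPM in control libraries. HSPA9 averaged 596.1 CPM in knockdown libraries and 233.2 CPM in control libraries. Against control cells, 26 of the 44 genes rose and 12 fell, and 6 did not pass. A gene was called with an adjusted p below 0.05 in the quasi-likelihood F test of edgeR, adjusted by the method of Benjamini and Hochberg over all genes tested. These counts have to be read against a transcriptome in which most genes moved. Over all genes tested, 79.7% were called, 40.1% as higher and 39.6% as lower, beside 86.4% of the 44, with 59.1% higher and 27.3% lower. The groups did not overlap for 33 of the 44 genes and for 67.5% of all genes. Of the 44, 11 rose at least 2-fold and 7 fell at least 2-fold, beside 24.3% and 24.2% of all genes. The median log2 fold change of knockdown over control was 0.40 for the 44 genes and 0.01 for all genes tested.

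The calls differed between the branches of the pathway, which hold 2 to 8 genes each. Most subunits of TOM, most intermembrane space chaperones, most of the import motor, the chaperonin pair and the peptidase were higher, while the TIM22 group and most genes of the group of proteases and disaggregase were lower or did not pass. Shares over all genes tested were 40.1% higher and 39.6% lower. The branches also differ in gene span, with which fold changes ran, as given below. With that trend removed, TOMM20, TOMM70, TOMM5 and TOMM34 passed as higher, but TOMM22, TOMM40 and TOMM6 as lower. By role, the median log2 fold change was highest in the import motor (1.24) and the intermembrane space chaperones (0.95), and lowest in the proteases and disaggregase (-1.06) and the TIM22 group (-0.85).

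**Figure D1:**
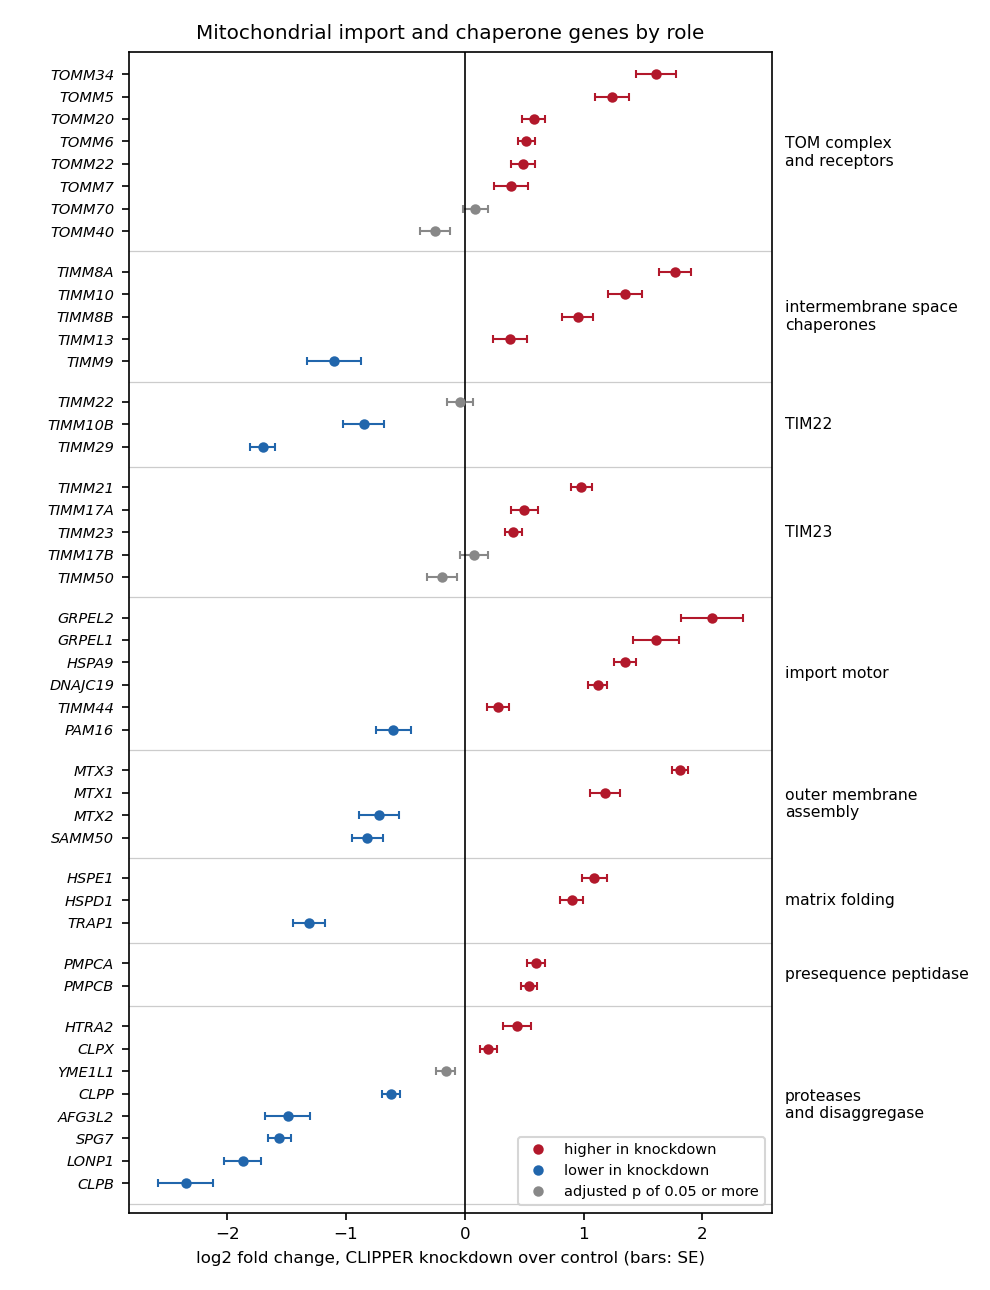
Log2 fold change of knockdown over control (horizontal axis) for each of the 44 genes, grouped by role down the page, with bars for the standard error; red marks genes called higher, blue genes called lower and grey genes with an adjusted p of 0.05 or more. Values run between -2.35 for CLPB and 2.08 for GRPEL2, and 5 of the 8 genes of the protease and disaggregase group are blue.

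Of the 8 genes of the outer membrane entry gate and its receptors, 6 rose, 0 fell and 2 did not pass. TOMM34, a cytosolic co-chaperone that links HSP70 and HSP90 to precursors, changed most. TOMM34 had 130.0, 109.7, 188.8, 207.8 and 169.7 CPM in the knockdown libraries (replicates 1 to 5 in that order, as in all such lists here), against 59.7, 49.0, 55.8, 53.8 and 46.1 CPM in the control libraries. CPM were computed after scaling the libraries by the trimmed mean of M-values. All knockdown values lay above all control values, and the difference was 3.05-fold, with a log2 fold change of 1.61 ± 0.165 (SE, n = 5 each, edgeR adjusted p = 2.2e-06). TOMM5, a small subunit that helps to assemble the channel, had 58.3, 56.6, 86.1, 94.5 and 79.2 CPM in the knockdown libraries, against 34.6, 32.7, 30.4, 29.6 and 31.0 CPM in the control libraries. Its groups were also apart, with knockdown replicates 1 and 2 nearest to the controls, and TOMM5 rose 2.37-fold (log2 fold change 1.24 ± 0.141, SE, edgeR adjusted p = 5.2e-06). Of the TOMM5 exon bases, 18.9% are shared with other annotated genes on the same strand, so part of its count is uncertain.

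Of the receptors for presequences and for carriers, the first passed as higher. The presequence receptor TOMM20 averaged 221.5 ± 30.2 CPM in knockdown libraries and 148.4 ± 4.17 CPM in control libraries (SD, n = 5 each), with a log2 fold change of 0.58 and no overlap. TOMM70, the receptor for carriers and other chaperone-bound precursors, averaged 133.0 ± 19.1 CPM in knockdown libraries and 125.0 ± 7.52 CPM in control libraries, and its log2 fold change of 0.09 did not pass (edgeR adjusted p = 0.432). The ratio of TOMM70 to TOMM20 counts within a library, on the log2 scale, was 0.49 lower in the knockdown (exact permutation test, two-sided p = 0.0317, adjusted p = 0.0381 over 18 pairs, n = 5 each), although its groups overlapped. The central receptor TOMM22 (log2 fold change 0.49) and the small subunits TOMM6 (0.52) and TOMM7 (0.39) passed as higher, while TOMM40, the channel itself, did not pass at -0.25 (edgeR adjusted p = 0.0913). TOMM7 overlapped between the groups, and its call was lost without control replicate 3 (0.35), 4 (0.36) or 5 (0.32) or knockdown replicate 3 (0.30). All exon bases of TOMM6 lie within another annotated gene on the same strand, so its count is uncertain. When the trend of fold changes on gene span was removed, TOMM22, TOMM6 and TOMM7 turned to the lower side (-0.40, -0.51 and -0.12), as given with the span data.

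The intermembrane space chaperones form hexamers, TIMM9 with TIMM10 and TIMM8A with TIMM13, that shield hydrophobic precursors on the way to the inner or outer membrane. Of the 5 genes, 4 rose and 1 fell, and the fall was in 1 partner of the main hexamer. TIMM10 had 25.3, 25.6, 38.2, 41.1 and 34.6 CPM in the knockdown libraries, against 13.8, 13.8, 11.3, 13.4 and 12.0 CPM in the control libraries. TIMM9 had 6.93, 11.6, 5.6, 4.24 and 5.1 CPM in the knockdown libraries, against 15.9, 15.1, 13.9, 14 and 13.2 CPM in the control libraries. Neither gene overlapped between the groups, and the partners moved in opposite directions, TIMM10 2.56-fold higher and TIMM9 2.14-fold lower. The log2 fold changes were 1.35 ± 0.146 for TIMM10 (SE, edgeR adjusted p = 3.4e-06) and -1.10 ± 0.226 for TIMM9 (SE, edgeR adjusted p = 6.7e-04). The count ratio of TIMM9 to TIMM10 averaged 0.195 in knockdown libraries and 1.12 in control libraries, a log2 difference of -2.53, the largest of the 18 pairs compared (exact permutation test, two-sided p = 0.00794, below which this design cannot go, adjusted p = 0.0102). Of the TIMM9 exon bases, 26.6% lie opposite exons of other genes. The libraries were made strand-specific, but the strand setting of the counting is not given in the sources used here, so reads of the partner strand may be in that count.

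TIMM8A, whose loss causes a deafness and dystonia syndrome, had 22.2, 21.6, 29.8, 31.3 and 27.0 CPM in the knockdown libraries, against 8.61, 7.99, 8.17, 7.7 and 6.09 CPM in the control libraries. It rose 3.42-fold with no overlap (log2 fold change 1.77 ± 0.135, SE, edgeR adjusted p = 2.5e-07). Its hexamer partner TIMM13 had 44.8, 48.2, 64.1, 78.9 and 62.3 CPM in the knockdown libraries, against 48.3, 51.0, 43.0, 44.1 and 43.1 CPM in the control libraries. The groups overlapped for TIMM13, where knockdown replicates 1 and 2 lay among the controls, and the log2 fold change of 0.38 (edgeR adjusted p = 0.026) lost its call when any of control replicates 3, 4 and 5 or knockdown replicates 3 and 4 was left out. The ratio of TIMM8A to TIMM13 was 0.447 in knockdown libraries and 0.168 in control libraries, a log2 difference of 1.41 with no overlap. Of the TIMM13 exon bases, 20.1% lie opposite exons of TMPRSS9. TIMM8B, a paralog of TIMM8A with 30.1% of its exon bases opposite exons of NKAPD1, had a log2 fold change of 0.95, and the ratio of TIMM8A to TIMM8B was 0.83 higher on the log2 scale. After removal of the span trend, TIMM8B (-0.15) and TIMM13 (-0.73) turned to the lower side.

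In the carrier translocase TIM22, 2 of the 3 genes fell, 0 rose and 1 did not pass. TIMM29, a subunit of the animal complex that links it to TOM, had 3.5, 4.15, 3.9, 3.42 and 3.56 CPM in the knockdown libraries, against 13.3, 11.2, 12.9, 11.3 and 11.6 CPM in the control libraries. Every knockdown library, replicate 2 included, was well below every control library, and TIMM29 was 3.25-fold lower (log2 fold change -1.70 ± 0.104, SE, edgeR adjusted p = 6.0e-08). TIMM10B, the small TIM docked on this complex, had 9.78, 15.2, 8.05, 7.36 and 8.79 CPM in the knockdown libraries, against 18.1, 19.4, 16.7, 16.3 and 18.4 CPM in the control libraries. Knockdown replicate 2 came close to the lowest control, with no overlap, and the log2 fold change was -0.85. The ratio of TIMM10B to TIMM10 averaged 0.294 in knockdown libraries and 1.38 in control libraries, a log2 difference of -2.23 with no overlap. Of the TIMM10B exon bases, 13.25% are shared with another annotated gene on the same strand, so part of its count is uncertain. The channel subunit TIMM22 itself averaged 29.6 ± 3.89 CPM in knockdown libraries and 30.5 ± 3.27 CPM in control libraries and did not pass (log2 fold change -0.04, edgeR adjusted p = 0.717).

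Of the 5 genes of the presequence translocase TIM23, 3 rose, 0 fell and 2 did not pass, and no change reached 2-fold. TIMM21, which tethers TIM23 to TOM and also takes part in respiratory chain assembly, had 58.3, 63.2, 61.0, 66.3 and 56.6 CPM in the knockdown libraries, against 33.7, 34.2, 29.4, 30.3 and 27.0 CPM in the control libraries. The groups were far apart, with knockdown replicate 2 second highest, and TIMM21 was 1.98-fold higher (log2 fold change 0.98 ± 0.088, SE, edgeR adjusted p = 7.4e-07). The channel TIMM23 had a log2 fold change of 0.41. The channel partner TIMM17A was at 0.50 and its paralog TIMM17B did not pass at 0.08 (edgeR adjusted p = 0.511), and the ratio of TIMM17A to TIMM17B was 0.43 higher on the log2 scale. TIMM50, the presequence receptor of the complex, did not pass at -0.19, and -0.31 without knockdown replicate 2, where it passed as lower (edgeR adjusted p = 0.00782). The ratio of TIMM50 to TIMM23 was 0.481 in knockdown libraries and 0.732 in control libraries, a log2 difference of -0.60 with no overlap.

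The import motor showed the highest median of the role groups, with 5 of 6 genes higher and 1 lower. HSPA9, mortalin, the mitochondrial HSP70 that drives the motor, had 565.0, 555.5, 621.2, 654.6 and 584.3 CPM in the knockdown libraries, against 242.9, 250.3, 223.4, 231.4 and 218.0 CPM in the control libraries. Even the lowest knockdown library had over 2 times the highest control level, and the log2 fold change was 1.35 ± 0.0913 (SE, edgeR adjusted p = 1.1e-07). GRPEL1, the main nucleotide exchange factor that resets HSPA9, had 67.2, 59.9, 114.6, 121.6 and 109.7 CPM in the knockdown libraries, against 35.9, 31.1, 30.5, 30.4 and 27.2 CPM in the control libraries. GRPEL2, its paralog, had 43.3, 36.9, 88.0, 102.7 and 86.1 CPM in the knockdown libraries, against 19.1, 16.5, 17.8, 17.5 and 13.8 CPM in the control libraries. For both exchange factors the knockdown libraries fell into a lower pair, replicates 1 and 2, and a higher trio, all of them above every control. GRPEL1 was 3.05-fold higher (log2 fold change 1.61 ± 0.193, SE, edgeR adjusted p = 8.1e-06) and GRPEL2 4.21-fold higher (2.08 ± 0.262, SE, edgeR adjusted p = 1.3e-05), the largest rise among the 44. The ratio of GRPEL1 to GRPEL2 was 1.38 in knockdown libraries and 1.83 in control libraries, with no overlap.

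The J-domain proteins of the motor went apart. DNAJC19, the J-protein that stimulates HSPA9 and is mutated in a dilated cardiomyopathy with ataxia, had 31.5, 28.5, 29.8, 33.7 and 31.7 CPM in the knockdown libraries, against 13.4, 14.9, 14.2, 13.7 and 15.2 CPM in the control libraries. PAM16, whose yeast counterpart restrains the J-protein, had 5.92, 7.91, 5.6, 5.18 and 5.77 CPM in the knockdown libraries, against 10.5, 10.7, 7.07, 9.08 and 8.83 CPM in the control libraries. DNAJC19 was 2.17-fold higher without overlap (log2 fold change 1.12 ± 0.0798, SE, edgeR adjusted p = 1.5e-07), whereas PAM16 was lower (log2 fold change -0.60 ± 0.148, SE, edgeR adjusted p = 0.00231) with knockdown replicate 2 above control replicate 3. Of the PAM16 exon bases, 22.4% belong also to the read-through locus CORO7-PAM16, so its count is uncertain. The ratio of PAM16 to DNAJC19 was 0.194 in knockdown libraries and 0.642 in control libraries, a log2 difference of -1.72 with no overlap. TIMM44, the scaffold that ties the motor to the channel, had a log2 fold change of 0.28 (edgeR adjusted p = 0.0173), which was lost without control replicate 3 (0.21) or 5 (0.22).

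Outer membrane assembly split evenly, with 2 of 4 genes higher and 2 lower. SAMM50, the beta-barrel core of SAM, averaged 32.7 ± 7.13 CPM in knockdown libraries and 57.5 ± 4.0 CPM in control libraries (SD, n = 5 each), and its log2 fold change was -0.82 (edgeR adjusted p = 8.7e-05). Metaxins are the partner subunits of SAM. MTX3 had 138.7, 134.9, 134.0, 142.6 and 142.2 CPM in the knockdown libraries, against 38.6, 40.8, 37.5, 40.6 and 39.6 CPM in the control libraries. The libraries of a group differed little, and the 3.51-fold rise (log2 fold change 1.81 ± 0.0691, SE, edgeR adjusted p = 6.5e-09) carried the smallest p of the 44. MTX1 had 11.0, 11.0, 13.8, 13.9 and 14.9 CPM in the knockdown libraries, against 5.98, 6.11, 6.24, 4.9 and 5.25 CPM in the control libraries. MTX2 had 29.6, 44.7, 25, 22.0 and 23.6 CPM in the knockdown libraries, against 48.6, 51.1, 42.8, 49.0 and 47.3 CPM in the control libraries. MTX1 was 2.26-fold higher with no overlap (log2 fold change 1.18 ± 0.123, SE, edgeR adjusted p = 2.6e-06), while MTX2 was lower (log2 fold change -0.72 ± 0.171, SE, edgeR adjusted p = 0.0019) with knockdown replicate 2 inside the control range. The ratio of MTX1 to MTX2 was 0.458 in knockdown libraries and 0.119 in control libraries, a log2 difference of 1.94. Of the MTX1 exon bases, 21.9% lie opposite exons of other genes, and MTX1 has a pseudogene, so its count is uncertain.

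In matrix folding, both chaperonin genes rose and TRAP1 fell. HSPD1 encodes HSP60, the barrel in which imported proteins fold, and HSPE1 encodes HSP10, its lid. They lie head to head on chromosome 2, HSPD1 on the minus strand and HSPE1 on the plus strand. The stretch between their RefSeq starts (GRCh38.p14, chr2:197500275-197500378, plus strand, 104 bases, 74.0% G or C) is shown because both genes read outward from it and both rose. All bases are in lower case, since no motif is marked.

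HSPD1-HSPE1 stretch: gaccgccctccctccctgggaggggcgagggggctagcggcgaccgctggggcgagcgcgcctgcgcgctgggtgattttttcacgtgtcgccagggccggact

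HSPE1 had 156.2, 151.5, 166.2, 137.4 and 144.0 CPM in the knockdown libraries, against 74.1, 81.7, 56.0, 70.5 and 71.9 CPM in the control libraries. HSPD1 averaged 729.5 ± 61.5 CPM in knockdown libraries and 391.7 ± 25.5 CPM in control libraries (SD, n = 5 each). Neither gene overlapped between the groups, with log2 fold changes of 1.09 ± 0.104 for HSPE1 (SE, edgeR adjusted p = 1.3e-06) and 0.90 ± 0.098 for HSPD1 (SE, edgeR adjusted p = 3.6e-06). With the span trend removed, HSPE1 was at 0.21 and lost its call (edgeR adjusted p = 0.18). Within a library the log2 ratio of HSPD1 to HSPE1 lay between 2.12 and 2.54 in the knockdown and between 2.32 and 2.75 in the control, and its difference of -0.20 did not pass (exact permutation test, two-sided p = 0.103, adjusted p = 0.116, n = 5 each). The ratio of HSPA9 to HSPD1 was higher, 0.818 in knockdown libraries and 0.596 in control libraries, with no overlap and a log2 difference of 0.46. HSPE1 shares 10.5% of its exon bases with the read-through locus HSPE1-MOB4. Pseudogenes of both chaperonin genes make their counts less certain. TRAP1, the HSP90 of the matrix, had 30.7, 50.9, 34.4, 31.7 and 34.9 CPM in the knockdown libraries, against 99.3, 94.6, 88.7, 89.3 and 80.7 CPM in the control libraries. Knockdown replicate 2 was the highest of its group but well below the controls, and TRAP1 was 2.48-fold lower (log2 fold change -1.31 ± 0.134, SE, edgeR adjusted p = 2.3e-06). Of its exon bases, 28.5% lie opposite exons of DNASE1.

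**Figure D2:**
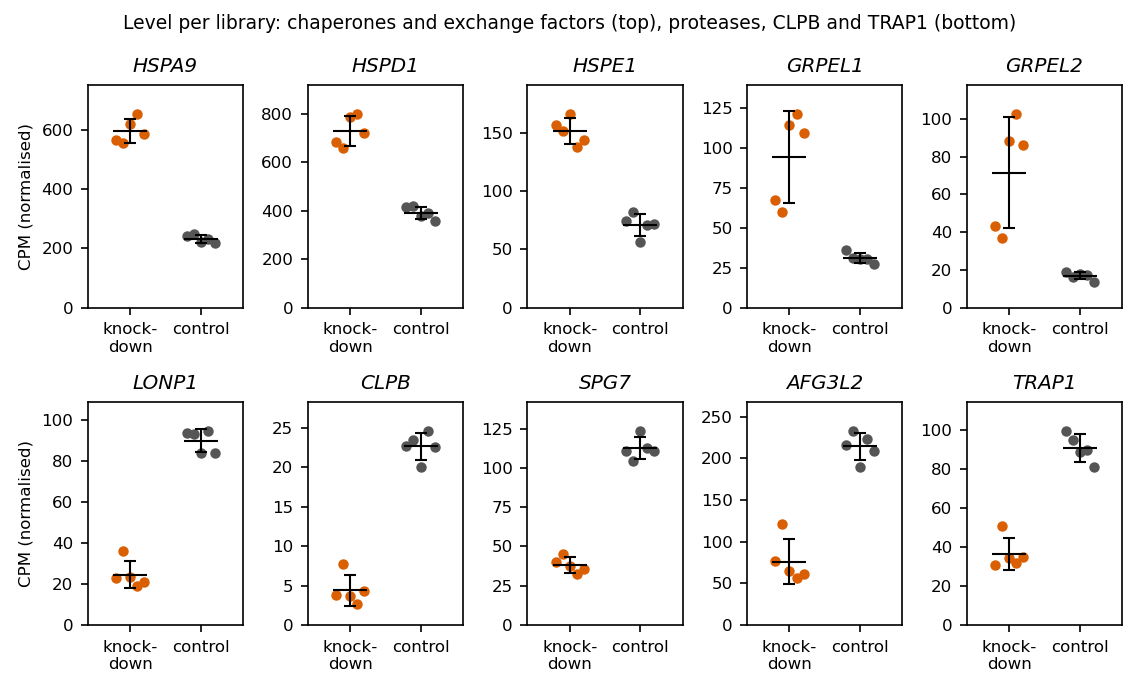
Normalised CPM (vertical axes, starting at 0) in each of the 5 knockdown and 5 control libraries for 5 chaperone and exchange factor genes (top row) and for 3 proteases, CLPB and TRAP1 (bottom row); points are libraries, and bars show the mean and SD. The top row is higher in every knockdown library than in any control library, the bottom row lower in every one, for example 19.0 to 36.0 CPM against 84.0 to 94.7 CPM for LONP1.

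The presequence peptidase cuts the targeting sequence off, and both of its subunits rose by similar amounts. PMPCA, the subunit that binds the presequence, had 120.8, 108.5, 124.7, 131.0 and 124.8 CPM in the knockdown libraries, against 78.9, 81.6, 79.5, 80.5 and 81.0 CPM in the control libraries. The groups were apart, and the log2 fold change was 0.60 ± 0.0737 (SE, edgeR adjusted p = 9.1e-06). PMPCB, the catalytic subunit, was at 0.54 ± 0.0664 (SE, edgeR adjusted p = 9.6e-06). The log2 ratio of PMPCA to PMPCB lay between 0.37 and 0.54 in knockdown libraries and between 0.39 and 0.46 in control libraries, a difference of 0.06 that did not pass (exact permutation test, two-sided p = 0.135, adjusted p = 0.143, n = 5 each).

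Of the 8 genes of the group of proteases and the disaggregase CLPB, 2 rose, 5 fell and 1 did not pass, and no rise reached 2-fold. LONP1, the main ATP-dependent protease of the matrix, had 23.1, 36.0, 23.6, 19.0 and 21.0 CPM in the knockdown libraries, against 93.9, 93.2, 84.0, 94.7 and 84.1 CPM in the control libraries. CLPB (chromosome 11, 72285495 to 72434680), which pulls apart protein aggregates in the intermembrane space, had 3.84, 7.74, 3.62, 2.64 and 4.25 CPM in the knockdown libraries, against 22.7, 23.5, 20, 24.6 and 22.5 CPM in the control libraries. Both were far below the controls in every knockdown library, with replicate 2 the highest of its group for each. LONP1 was 3.66-fold lower (log2 fold change -1.87 ± 0.154, SE, edgeR adjusted p = 4.2e-07) and CLPB 5.09-fold lower (-2.35 ± 0.232, SE, edgeR adjusted p = 1.6e-06), the largest fall among the 44.

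The m-AAA protease of the inner membrane, which faces the matrix, is built from AFG3L2 and SPG7, the gene of a hereditary spastic paraplegia. SPG7 had 40.1, 45.3, 37.4, 32.5 and 35.5 CPM in the knockdown libraries, against 111.0, 104.3, 123.6, 112.6 and 110.5 CPM in the control libraries. AFG3L2 had 76.5, 121.8, 64.4, 55.9 and 61.7 CPM in the knockdown libraries, against 216.6, 233.0, 189.7, 223.6 and 209.1 CPM in the control libraries. The subunits fell side by side, SPG7 2.94-fold (log2 fold change -1.56 ± 0.098, SE, edgeR adjusted p = 7.1e-08) and AFG3L2 2.82-fold (-1.49 ± 0.189, SE, edgeR adjusted p = 1.3e-05). The log2 ratio of SPG7 to AFG3L2 ranged over -1.43 to -0.78 in knockdown libraries and -1.16 to -0.62 in control libraries, and its difference of -0.01 did not pass (exact permutation test, two-sided p = 0.952, n = 5 each).

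YME1L1, the i-AAA protease that faces the intermembrane space, did not follow them. YME1L1 had 180.0, 185.3, 195.8, 205.8 and 195.6 CPM in the knockdown libraries, against 225.4, 219.7, 210.9, 216.7 and 202.3 CPM in the control libraries. The groups overlapped through knockdown replicate 4 and control replicate 5, and the log2 fold change of -0.16 did not pass (edgeR adjusted p = 0.0755), but did without control replicate 5 (-0.21, edgeR adjusted p = 0.042). The ratio of YME1L1 to AFG3L2 was 2.63 in knockdown libraries and 1.00 in control libraries, a log2 difference of 1.39 with no overlap.

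The ClpXP protease of the matrix also split. CLPP, its proteolytic barrel, had 17.4, 18.9, 16.9, 19.0 and 17.4 CPM in the knockdown libraries, against 29.1, 27.0, 28.0, 26.5 and 27.0 CPM in the control libraries. All knockdown libraries were lower, and the log2 fold change was -0.62 ± 0.0746 (SE, edgeR adjusted p = 8.1e-06). CLPX, the unfoldase that feeds the barrel, was slightly higher at 0.20 (edgeR adjusted p = 0.0172), a call that was lost without control replicate 1 (0.17), 2 (0.16) or 5 (0.17). The ratio of CLPP to CLPX was 0.16 in knockdown libraries and 0.283 in control libraries, and that of LONP1 to CLPP was 1.34 in knockdown libraries and 3.27 in control libraries, both with no overlap. HTRA2, a quality control protease of the intermembrane space, had a log2 fold change of 0.44 (edgeR adjusted p = 0.00418). It turned to -0.44 once the span trend was removed, and 32.3% of its exon bases lie opposite exons of AUP1 and LOXL3.

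The letters GCATGCGC, part of the site of the nuclear respiratory factor NRF1, were searched on both strands of RefSeq promoter windows reaching 250 bases before to 50 bases after a gene start. Windows were at hand for 39 of the 44 genes, with several starts for some. Matches stood in 5 of their 46 windows (10.9%) and in 3.05% of all 35116 windows. The 5 genes were LONP1, PAM16, TIMM10B, TIMM9 and TOMM7, of which the first 4 fell and TOMM7 rose. The bases between the annotated starts of LONP1 and of its neighbour CATSPERD on the other strand (RefSeq, GRCh38.p14, chr19:5720573-5720636, minus strand, 64 bases) are shown because LONP1 held more matches than the other 4 genes. The LONP1 matches stood at -200, -198, -128 and -25 bases from the start used for its promoter window (chr19:5720403-5720702), and those at -200 and -198 overlap. The stretch shown ends at a different start, farther upstream, next to the end of the GENCODE span of LONP1 (5691834 to 5720572). Capitals mark the only match inside the stretch shown, the one at -128 from the start of the window. The match at -25 lies inside the GENCODE span.

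LONP1 stretch: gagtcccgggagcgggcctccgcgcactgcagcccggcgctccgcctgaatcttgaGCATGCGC

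A match is a run of letters and not a measured binding site. The heat shock unit GAANNTTC was found in 1 of the 46 windows (2.17%, HSPD1) and in 6.77% of all windows. The composite ATF and C/EBP letters TGATGCAA stood in 2 of the 46 (4.35%, PMPCB and TIMM22) and in 0.866% of all windows. Of these, PMPCB rose and TIMM22 did not pass.

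The 18 pairs of partner genes were compared as log2 count ratios within each library, which do not depend on the scaling between libraries. Of these, 15 passed (adjusted p below 0.05 over the 18 pairs), 14 had no overlap between the groups, and 7 differed by at least 1 on the log2 scale. The remaining 3 pairs, HSPD1 with HSPE1, PMPCA with PMPCB and SPG7 with AFG3L2, did not pass. A p that misses the threshold does not show that their ratios were equal. The ratio of MTX3 to MTX1, 0.64 higher on the log2 scale, completes the list. No share of changed ratios was computed for other pairs of genes, so these counts have no background. Among single genes, 79.7% of all those tested were called and 67.5% had no overlap. Partners can differ in gene span, as do MTX1 (5.13 kb) and MTX2 (68.6 kb), and no pair ratio was recomputed with the span trend removed. With it removed, the single-gene log2 fold changes were 0.42 for MTX1 and -0.12 for MTX2, and 1.00 for HSPD1 and 0.21 for HSPE1. For TIMM10B and TIMM10 they were -1.69 and 0.30. The part of gene span in the ratios was not tested.

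**Figure D3:**
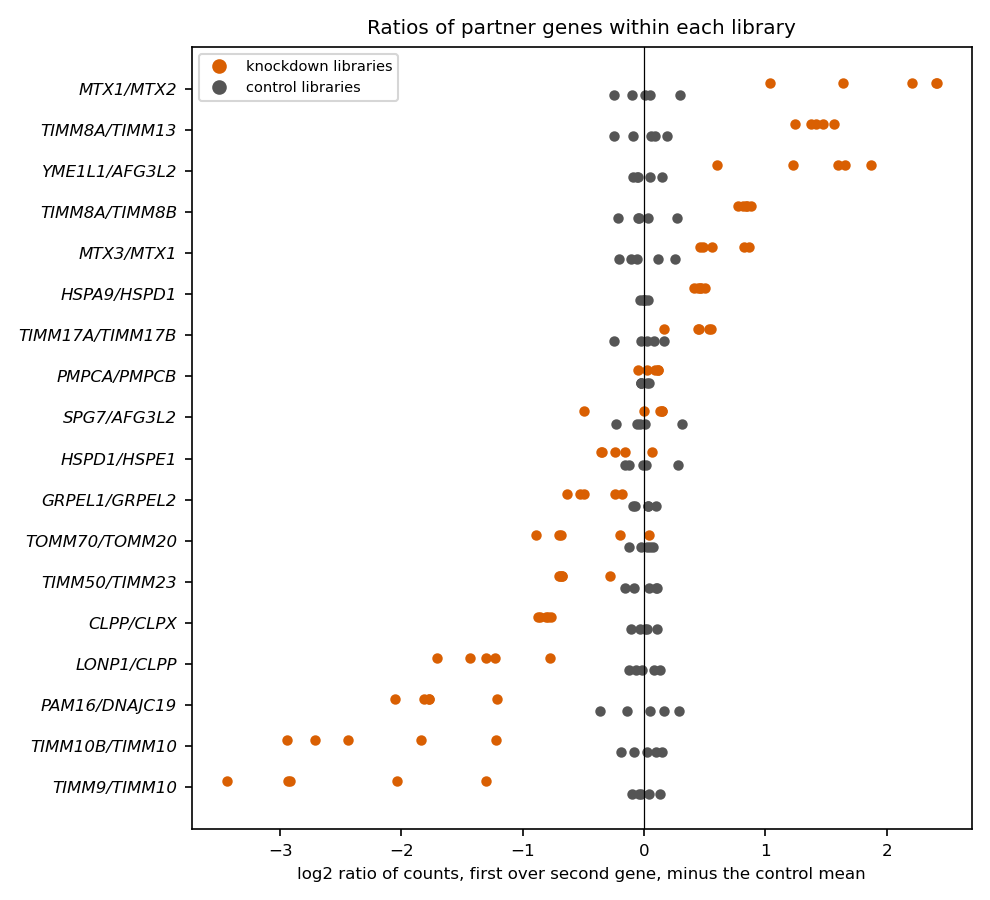
Log2 ratio of counts of the first to the second gene of each pair in each library, minus the mean of the control libraries (horizontal axis), for 18 pairs down the page; orange points are the 5 knockdown libraries and grey points the 5 control libraries. TIMM9/TIMM10 shifts farthest to the left (-2.53) and MTX1/MTX2 farthest to the right (1.94), while points of both colours mix for SPG7/AFG3L2, PMPCA/PMPCB and HSPD1/HSPE1.

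Levels of different genes were set side by side only per kilobase of the canonical transcript. On that scale HSPD1 was the most abundant of the 44 in control libraries, and it averaged 324.9 CPM per kb in knockdown libraries and 174.5 CPM per kb in control libraries. HSPE1 came next, at 271.2 CPM per kb in knockdown libraries and 127.2 CPM per kb in control libraries. HSPA9 ranked 7 in the control, with 135.4 CPM per kb in knockdown libraries and 53.0 CPM per kb in control libraries. AFG3L2 ranked 4 in the control, with 24.1 CPM per kb in knockdown libraries and 67.9 CPM per kb in control libraries. At the lower end CLPB had 0.444 CPM per kb in knockdown libraries and 2.27 CPM per kb in control libraries, and GRPEL2 had 17.8 CPM per kb in knockdown libraries and 4.21 CPM per kb in control libraries. In the control libraries GRPEL2 ranked 42 and CLPB 44.

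Fold changes in this comparison ran with gene span, the length of a gene from start to end with its introns, and the 44 genes followed that trend in part. Their median span was 14 kb, against 33.9 kb for all coding genes tested. Of the 7 genes that span 40 to 160 kb, which include CLPB, SPG7, TRAP1 and AFG3L2, 0 rose and 6 fell, and their median was -1.31 on the log2 scale. Of all coding genes of that range 65.8% fell, with a median of -0.70. Of the 11 genes under 5 kb, 8 rose, with a median of 0.49, and of all coding genes of that range 71.7% rose, with a median of 0.92. Of the 7 genes of 5 to 10 kb, 5 rose with a median of 1.18. Of all coding genes of that range 62.2% rose, with a median of 0.63. Of the 11 genes of 10 to 20 kb, 8 rose with a median of 0.50, beside 54.7% and a median of 0.42 for all coding genes of that range. The 8 genes of 20 to 40 kb had a median of 0.31, beside -0.06. Spearman's rho of fold change with span was -0.437 over the 44 genes and -0.599 over 14777 coding genes, which share libraries and are no independent replicates.

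Several genes lay away from the trend. TIMM29 (4.72 kb, chromosome 19, 10928811 to 10933535) and TIMM10B (3.18 kb) are short and fell. HSPA9 (21.9 kb) is longer than the median of the 44 and rose. HSPD1 (30.2 kb) also rose, but its span depends on the annotation. The RefSeq start of HSPD1, at 197500274, lies well inside the GENCODE span used here (chromosome 2, 197486584 to 197516737). A fit with offsets that took up the span trend gave 18 of the 44 genes higher and 19 lower, against 26 and 12 without them, and a median log2 fold change of -0.04. In that fit TIMM17B (-0.71), HTRA2, TOMM22, TOMM6, TOMM7, TIMM8B, TIMM13 and YME1L1 (0.20, not passing) changed sign, and the calls of HSPE1 (0.21), MTX2 (-0.12), TIMM17A (0.18) and TIMM44 (0.03) were lost. The part of gene span in these results was not tested further.

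**Figure D4:**
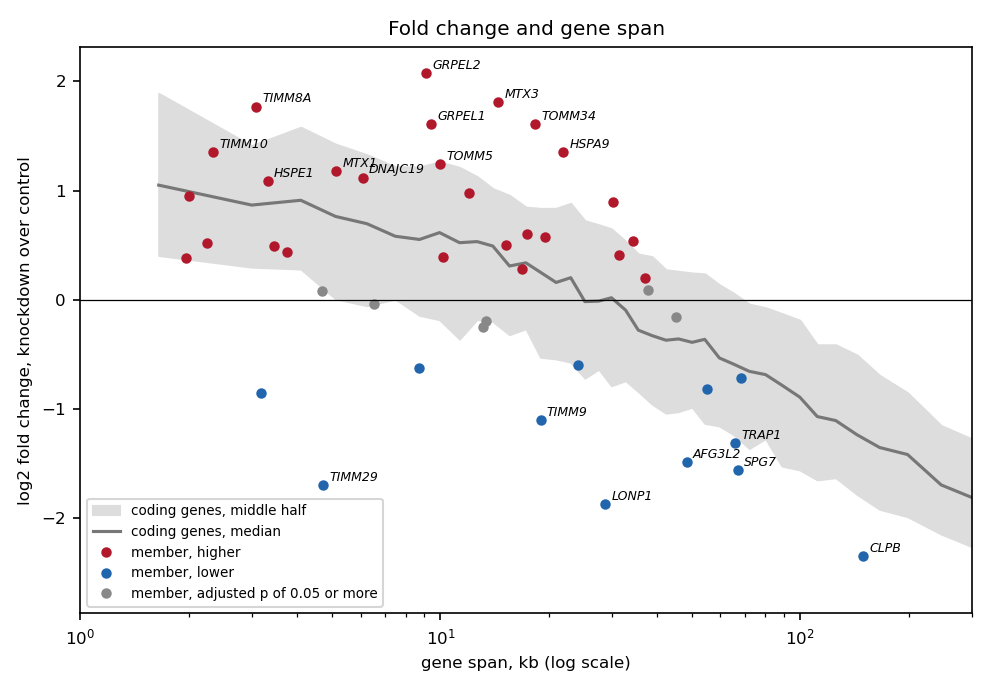
Log2 fold change of knockdown over control (vertical axis) against gene span in kb (horizontal log axis) for the 44 genes, coloured as higher, lower or not passing; the grey line and band give the median and the middle 50% of all coding genes tested. The coding genes descend with span, and CLPB, SPG7, TRAP1 and AFG3L2 descend with them, while TIMM29 at -1.70 lies far below the band and HSPA9 at 1.35 above it.

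Knockdown replicate 2 was the knockdown library nearest to the control mean for 25 of the 38 called genes (65.8%) and for 68.5% of all called genes. Leaving it out made the largest falls larger, with a log2 fold change of -2.67 for CLPB, -2.06 for LONP1, -1.74 for AFG3L2 and -1.40 for TIMM9. It also brought TOMM40 past the threshold as lower (-0.37). The summed level of cardiomyocyte markers, lower in every knockdown library, and the share of mitochondrial genome reads, which overlapped between the groups, moved with these results, and their part in them was not tested. Smooth muscle markers were at 474.2 to 870.6 CPM in knockdown libraries and 1145.8 to 2388.1 CPM in control libraries, with 4 of 4 lower. Fibroblast and epicardial markers were at 771.8 to 938.2 CPM in knockdown libraries and 1151.2 to 1264.2 CPM in control libraries, with 6 of 7 tested lower. Endothelial markers summed to 8.24 to 16.3 CPM in knockdown libraries and 29.3 to 49.9 CPM in control libraries, with 2 of 3 tested lower. Of the pluripotent markers, DPPA4 and LIN28A were the ones tested and the list summed to 3.06 to 5.09 CPM in knockdown libraries and 0.204 to 1.08 CPM in control libraries (2 of 2 tested higher). The endoderm list summed to 10.8 to 19.8 CPM in knockdown libraries and 5.44 to 6.93 CPM in control libraries, nearly all of it APOA1, the 1 of 2 tested that was higher. SOX17 did not pass, at 0.346 CPM in knockdown libraries and 0.372 CPM in control libraries on average, and AFP, FOXA2 and TTR averaged below 1 CPM in both groups. The neural list summed to 49.3 to 71.6 CPM in knockdown libraries and 19.6 to 35.3 CPM in control libraries, nearly all of it TUBB3, the 1 gene tested, which was higher, and PAX6, SOX1 and NEUROD1 averaged below 1 CPM in both groups. No listed marker was at 0 in all libraries. The part of these markers in the results was not tested either.

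Of 22 further import genes tested, 6 rose, 12 fell and 4 did not pass, with a median log2 fold change of -0.37. Over all genes tested, 40.1% were called higher and 39.6% lower. GFER, the sulfhydryl oxidase of the disulfide relay that traps small proteins such as the small TIMs, rose 5.04-fold (log2 fold change 2.33 ± 0.272, SE, edgeR adjusted p = 6.4e-06). GFER had 75.6, 57.9, 153.8, 179.3 and 144.9 CPM in the knockdown libraries, against 23.7, 24.4, 22.0, 25.5 and 25.7 CPM in the control libraries, the same low pair and high trio as the GRPEL genes. This split is not particular to them. On the first principal component over all genes tested, knockdown replicates 1 and 2 (-97.56 and -52.88) also lay nearer to the controls than the others (-145.4 to -123.2). ROMO1, a small inner membrane protein tied to TIM23, rose 2.55-fold (edgeR adjusted p = 5.0e-06). XPNPEP3, whose yeast counterpart trims a residue after presequence removal, fell 2.6-fold (edgeR adjusted p = 8.8e-08). TIMM23B, a near copy of TIMM23, fell 2.76-fold (edgeR adjusted p = 7.8e-07) while TIMM23 rose, and since reads can fit both copies, both values are uncertain.

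Of 7 genes of the mitochondrial stress response, which relays import failure and misfolding to the nucleus, 4 rose, 1 fell and 2 did not pass. Of all genes tested, 40.1% were called higher and 39.6% lower. Of the 4 that rose, CEBPB spans 1.84 kb, DDIT3 5.15 kb, ATF5 5.23 kb and EIF2AK1 36.9 kb. Among coding genes, 71.7% rose under 5 kb, 62.2% from 5 to 10 kb and 36.7% from 20 to 40 kb. The part of gene span here was not tested. ATF5, a transcription factor likened to ATFS-1 of the worm, which is itself sorted by mitochondrial import, had 26.5, 26.3, 55.8, 67.9 and 49.6 CPM in the knockdown libraries, against 14.9, 15.1, 12.5, 15.5 and 13.1 CPM in the control libraries. It rose 3.17-fold without overlap (log2 fold change 1.67 ± 0.247, SE, edgeR adjusted p = 4.8e-05), again lowest in knockdown replicates 1 and 2. EIF2AK1, the kinase HRI that starts the response, rose 1.38-fold (edgeR adjusted p = 4.3e-05), and DELE1, which carries the signal to it, fell 1.25-fold (edgeR adjusted p = 0.00147). ATF4 (0.39, edgeR adjusted p = 0.0535) and HSF1 (0.12, edgeR adjusted p = 0.123) did not pass.

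Of 13 cytosolic chaperones that keep precursors unfolded, 9 rose, 2 fell and 2 did not pass, with a median log2 fold change of 0.45. The shares over all genes tested were 40.1% higher and 39.6% lower. STIP1, which joins HSP70 to HSP90, averaged 328.4 ± 12.3 CPM in knockdown libraries and 171.4 ± 7.76 CPM in control libraries (SD, n = 5 each; edgeR adjusted p = 4.5e-07). UBQLN4, a ubiquilin that guards hydrophobic segments, rose 1.86-fold (edgeR adjusted p = 3.2e-07). DNAJA1, an HSP70 co-chaperone, fell 1.72-fold (edgeR adjusted p = 5.1e-05), and UBQLN1 fell 1.29-fold (edgeR adjusted p = 0.00102). HSPA8, the constitutive cytosolic HSP70, did not pass at a log2 fold change of 0.04 (edgeR adjusted p = 0.755), beside 1.35 for its mitochondrial relative HSPA9.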

How the data were processed

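RNA was sequenced in 10 libraries, 5 per group, with groups taken from their titles. The table the authors deposited gives raw counts per gene, with no scaling. Per the submitters' processing notes, Trim Galore 0.65, STAR 2.7.0 on GRCh38 with GENCODE release 38, and HTSeq were used. For HTSeq neither version nor strand setting is given in the sources used here. Names, spans and coordinates came from GENCODE release 44 on the same assembly (61481 identifiers matched; the 1060 tested without a name stayed in the fit). Promoter windows and the printed stretches came from RefSeq (GRCh38.p14).

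Counts were filtered (filterByExpr), scaled by trimmed means of M-values, and fitted in edgeR 4.0.16 in R 4.3.3 (robust quasi-likelihood F test, Benjamini-Hochberg adjustment over 21033 genes, threshold 0.05). The fit was tested on simulated data. The standard error was taken as the fold change (log2) over the root of F. The common biological variation came to 19.2%. The scaling assumes that rises and falls balance. Pairs used counts plus 0.5 and exact permutation tests over all 252 labelings with adjustment over 18 pairs.

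Values in every library are given for genes with an adjusted p below 0.05, no overlap and a change of at least 1 on the log2 scale, for the smallest-p gene of a role group with none, and for pairs that passed with a difference of at least 1. Up to 2 rising and 2 falling genes of each further list, by smallest p, are named. Beyond this rule, ATF4, HSF1 and HSPA8 were named after their values were seen. The members and lists were chosen with earlier results of these data known, and the pairs with earlier results of some members known. Alternatives were other scalings, DESeq2 1.42.0, limma-voom (limma 3.58.1), other filters, offsets for gene span, a block on the replicate number, dispersions without the robust option, a table without mitochondrial genome genes, and libraries left out.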

Additional observations from a re-analysis of the deposited data

Results flagged for a closer look

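Of 88 groups of 5 libraries (44 genes, knockdown and control), 5 held a library far from the others by Dixon's test, which flags about 1 in 20 groups by chance. All 5 were knockdown replicate 2, and in each it was the highest of its group. TIMM50 had 49.8 CPM there and 34.0 to 36.0 CPM in the other knockdown libraries. LONP1 had 36.0 CPM, against 19.0 to 23.6 CPM. TRAP1 had 50.9 CPM, against 30.7 to 34.9 CPM. SAMM50 had 44.9 CPM, against 27.2 to 32.3 CPM. PAM16 had 7.91 CPM, against 5.18 to 5.92 CPM.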

How the results depend on the processing

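Each of the 44 log2 fold changes was recomputed under 21 alternatives, all of those planned. Of the 924 values, 874 kept direction and call, 23 lost the call, 13 gained one and 14 changed sign. DESeq2, DESeq2 size factors, limma-voom, non-robust dispersions, a filter on a mean of at least 1 CPM and removal of mitochondrial genome genes changed no call of the 44, and a sign only for TIMM22 (0.01 with the filter). Upper-quartile factors moved the median of all genes to 0.20 and that of the 44 to 0.60, and brought TOMM70 (0.28) and TIMM17B (0.29) past the threshold as higher, while TIMM22 (0.15), TIMM50 (0.01) and YME1L1 (0.04) changed sign without passing. Without knockdown replicates 1 and 2 together, 27 of the 44 passed as higher and 14 as lower, the median was 0.55, and TOMM70 (-0.07) changed sign without passing. Leaving out 1 library at a time gave 22 to 26 genes higher, 12 to 14 lower, a median of 0.35 to 0.48 and 14 to 16 changed pairs, and moved no called gene's value by over 1.25-fold. TIMM22, which did not pass, ranged over -0.13 to 0.01 and changed sign without knockdown replicate 5.

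With offsets for gene span, the 44 had 18 higher, 19 lower and a median of -0.04, and 8 genes changed sign: TOMM22 (-0.40), TOMM6 (-0.51), TOMM7 (-0.12), TIMM8B (-0.15), TIMM13 (-0.73), TIMM17B (-0.71), HTRA2 (-0.44) and YME1L1 (0.20, not passing). TOMM40 (-0.62), TIMM22 (-0.69) and TIMM50 (-0.55) then passed as lower and TOMM70 (0.32) as higher. Over all 21 alternatives, 27 of the 44 genes kept direction and call throughout, and outside the span offsets 34 did.

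The replicate numbers did not pair the samples: same-numbered deviations correlated at -0.152, 0.207, 0.0927, 0.0041 and -0.0335, and 2 of 5 libraries matched their own number best. With the replicate block, 23 genes were higher and 13 lower (all genes 8214 and 8211). The replicate block of the pairs, a sign-flip test that cannot go below p = 0.0625 (exact), gave 0 changed pairs, with 14 pairs at that smallest p.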
